A study of Neurospora crassa with 12 samples.

Results

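This account describes 71 Neurospora crassa genes whose transcripts were more abundant in strain NKL2, which lacks the heterochromatic region LGIIK9het25, and did not reach 2 times the wild-type level in strain N3944, which lacks dim-5. They were chosen from the 9730 genes of the count tables by their measured levels. The level used was CPM, a gene's reads per 1000000 reads counted in genes of the same library. CPM is not scaled to gene length, so where the CPM of different genes is ranked or summarised, length enters as well. A gene was taken when its NKL2 mean was at least 1 CPM and at least 3 times the wild-type mean, when every NKL2 library lay above every wild-type library, and when its N3944 mean stayed under 2 times the wild-type mean. The rule left out 6 genes by name, among them the pheromone gene mfa-1 and the pheromone receptor gene pre-1. Before the condition on N3944, 256 genes passed, and 185 of these reached 2 times the wild-type mean in N3944. Since these values chose the genes, every level and ratio of theirs given here is a description and not a test.

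Polyadenylated RNA of mycelium, the network of vegetative hyphae of this filamentous fungus, was sequenced from 3 strains with 4 libraries each. The wild type N150 (WT) carries the genotype label mat A. NKL2 is labelled mat A with LGIIK9het25 replaced by hph, a hygromycin resistance marker, and N3944 is labelled mat x with dim-5 replaced by the resistance marker bar+. All cultures shared the same growth, namely shaken liquid culture for 16 h at 32 °C, with Vogel's medium and sucrose at 1.5%. No source used here says that the libraries of a strain came from separate cultures, so p-values measure the spread between these libraries, which may be technical in part. Each strain is a single strain, so a difference of NKL2 or N3944 from WT that does not come from its deletion cannot be told apart from one that does. For N3944, labelled mat x where WT is labelled mat A, this holds for mating type too.

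Constitutive heterochromatin in Neurospora covers AT-rich, repeat-derived DNA. The methyltransferase DIM-5 places the mark H3K9me3 there, which heterochromatin protein 1 binds and which directs DNA methylation in this fungus. Heterochromatic regions of different chromosomes cluster in the nucleus, and such regions hold few active genes. Here a strain that lacks a single large region is compared with one that lacks the mark everywhere. The genes are sorted by a limit on the N3944 mean, which does not show that a gene under it is unmoved in N3944. Genes without reads in WT cannot lie under that limit.

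Library totals in genes ran from 7164944 to 23925695 reads. The dim-5 gene (NCU04402) had 297 reads over the WT libraries, 362 over the NKL2 libraries and 3 over the N3944 libraries. Replicate 2 of WT and replicate 2 of NKL2 stood apart from the other libraries by their share of reads outside counted genes, at 36.8% and 31.9%, where the other libraries had 3.62% to 18.5%. Of the 5 genes listed for growing mycelium, 3 were found by symbol. The actin gene act had means of 2275 CPM in WT, 2098 in NKL2 and 2114 in N3944, and the histone gene hH3 had 2838, 2710 and 2894 CPM. The proton pump gene pma-1 had 5224, 5109 and 3317 CPM, and its difference between N3944 and WT was not called (log2 difference -0.60, edgeR adjusted p = 0.0637), while DESeq2 called 1 of these 3 genes in N3944. In such bulk RNA, fewer cells of a type and less RNA per cell cannot be told apart.

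The 71 genes drew few reads in WT. Their WT means ran from 0.0296 to 28.1 CPM with a median of 1.15 CPM, where the median over all genes was 24.1 CPM. A WT mean under 1 CPM was found for 33 of the 71 genes (46.5%) and for 18.2% of all genes, a share that a rule on ratios favours. In NKL2 the means of the 71 genes ran from 1.06 to 239 CPM with a median of 5.64 CPM. In N3944 they ran from 0.0176 to 27.2 CPM with a median of 0.935 CPM. The ratio of the NKL2 mean to the WT mean had a median of 5.49 and ran from 3.02 to 80.0. It was at least 5 for 42 genes, at least 10 for 16 and at least 20 for 7. The lowest NKL2 library was at least 2 times the highest WT library for 37 of the 71 genes, and less than 1.2 times it for 4.

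**Figure D1:**
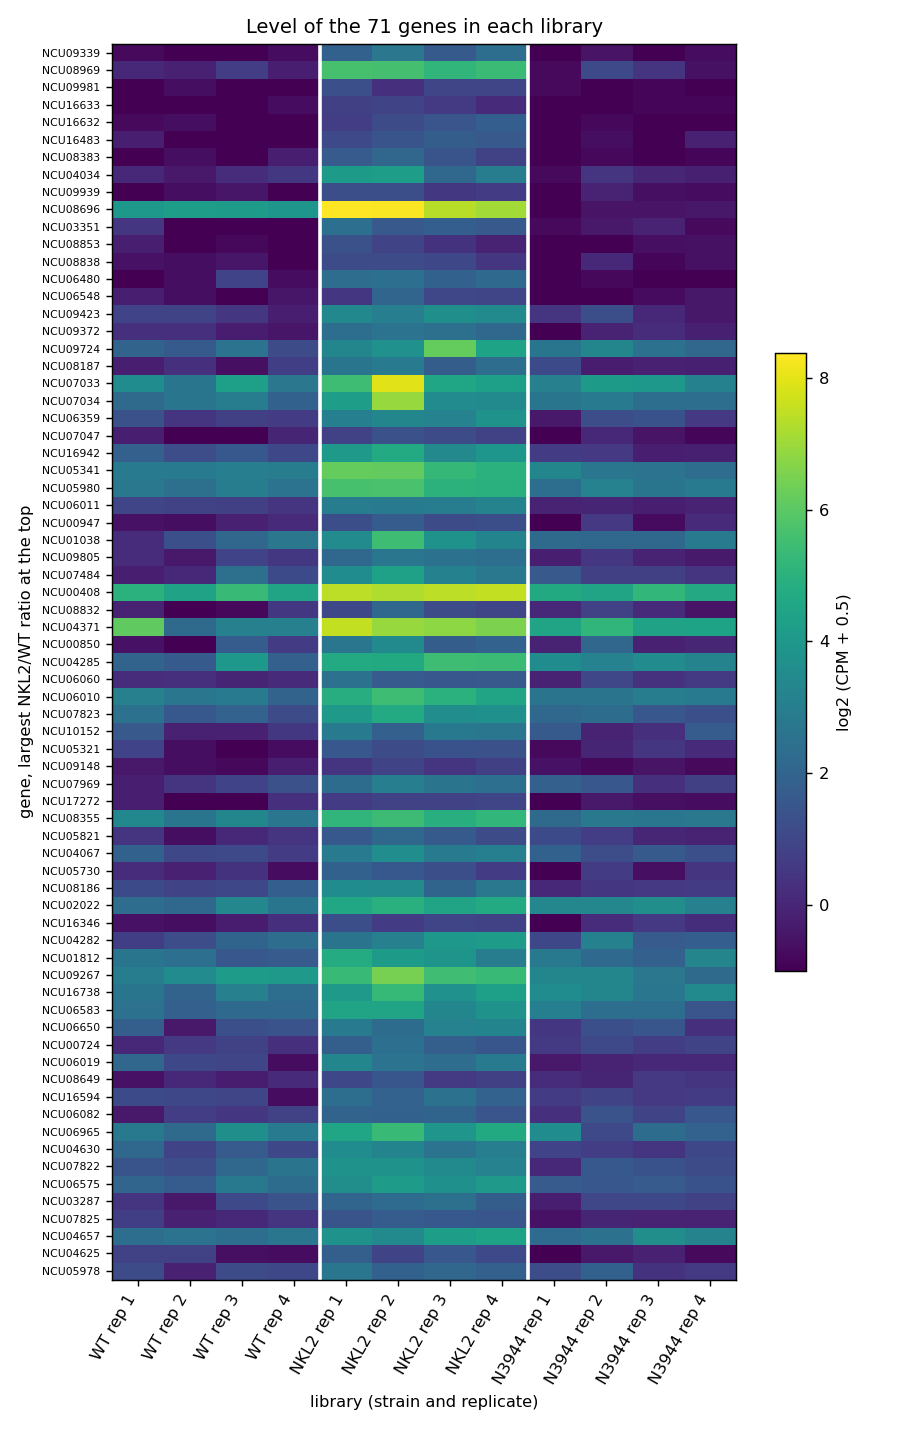
Level of each of the 71 genes (rows, largest ratio of the NKL2 mean to the WT mean at the top) in each of the 12 libraries (columns), as log2 (CPM + 0.5) by colour. The NKL2 columns are brighter than the WT columns in every row, as the rule requires, and most rows are dark in WT and N3944, with medians of 1.15 and 0.935 CPM.

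In an edgeR fit over all 8496 genes that passed the filter on low counts, 49 of the 68 members tested were called higher in NKL2 than in WT at an adjusted p under 0.05, and 19 were not called. Over all genes the share called higher was 3.08%, and the share called in either direction 4.32%. With the replicate number as a block, 42 were called, beside 3.12% of all genes. The rule used this contrast, so nothing is read from the difference. NCU08853, NCU09981 and NCU16633 did not pass the filter on low counts. The median log2 difference of the 68 members was 2.38, beside -0.01 over all tested genes. The DESeq2 count was 62 of 68, where 4.66% of all genes were called higher.

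Of the 71 genes, 4 (5.63%) have a symbol of their own in the RefSeq gene table, which holds a symbol for 11.5% of the genes counted. The gene stk-44 (NCU06583), named as a serine/threonine protein kinase gene, had 5.35, 3.21, 4.11 and 4.14 CPM in WT replicates 1 to 4. It had 21.6, 21.95, 9.29 and 13.4 CPM in NKL2 and 7.69, 4.79, 4.69 and 2.26 CPM in N3944. Replicates 1 and 2 of NKL2 were the higher ones, and N3944 overlapped WT.

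The other named enzyme genes belong to families of carbohydrate-cleaving enzymes. The gene gh18-8 (NCU07484) carries the name of the glycoside hydrolase family of chitinases, which cleave the chitin of fungal cell walls. It had 0.363, 0.558, 4.99 and 1.66 CPM in WT, 11.4, 20.3, 8.23 and 6.34 CPM in NKL2 and 2.56, 1.196, 1.21 and 0.836 CPM in N3944. WT replicate 3 was its highest WT library and lay below the lowest NKL2 library by 4.99 against 6.34 CPM. The gene gh13-2 (NCU09805), of the family that holds the starch-cleaving amylases, went from 0.807 ± 0.463 CPM in WT to 4.94 ± 0.844 CPM in NKL2, with 0.507 ± 0.280 CPM in N3944 (SD, n = 4). For gh13-2 the NKL2 libraries lay between 3.90 and 5.87 CPM, all above the highest WT library at 1.37 CPM.

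The fourth gene with a symbol, fkr-3 (NCU04371), depended on a single WT library. It had 67.5 CPM in WT replicate 1 and 4.19, 7.97 and 7.93 CPM in WT replicates 2 to 4. NKL2 had 185, 122, 111 and 91.2 CPM, and N3944 had 21.9, 35.8, 20.9 and 21.5 CPM. Without WT replicate 1 the ratio of NKL2 to WT was 19.0, where it was 5.81 with it. With that library left out, N3944 also lay above all the remaining WT libraries, so the place of fkr-3 below the N3944 limit rested on WT replicate 1.

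Among members with at least 5 CPM in NKL2, NCU08969 had the largest ratio. It had 0.544, 0.419, 1.13 and 0.355 CPM in WT and 49.7, 48.6, 35.6 and 41.1 CPM in NKL2, a ratio of means of 71.6. In N3944 it had 0.0916, 1.62, 0.857 and 0.167 CPM, around the WT values. Its lowest NKL2 library was 31.6 times its highest WT library, the widest such gap among the 71 genes. NCU04034 went from 0.603 ± 0.276 CPM in WT to 11.5 ± 7.03 CPM in NKL2, with 0.454 ± 0.312 CPM in N3944 (SD, n = 4). Its NKL2 libraries fell into higher and lower values, with 16.6 and 18.3 CPM in replicates 1 and 2 and 3.99 and 7.09 CPM in replicates 3 and 4. NCU09423 was steadier, with 10.0, 7.63, 12.2 and 10.3 CPM in NKL2 and 0.355 to 1.40 CPM in WT. NCU06359 had 7.81 to 13.3 CPM in NKL2 and 0.837 to 1.99 CPM in WT.

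**Figure D2:**
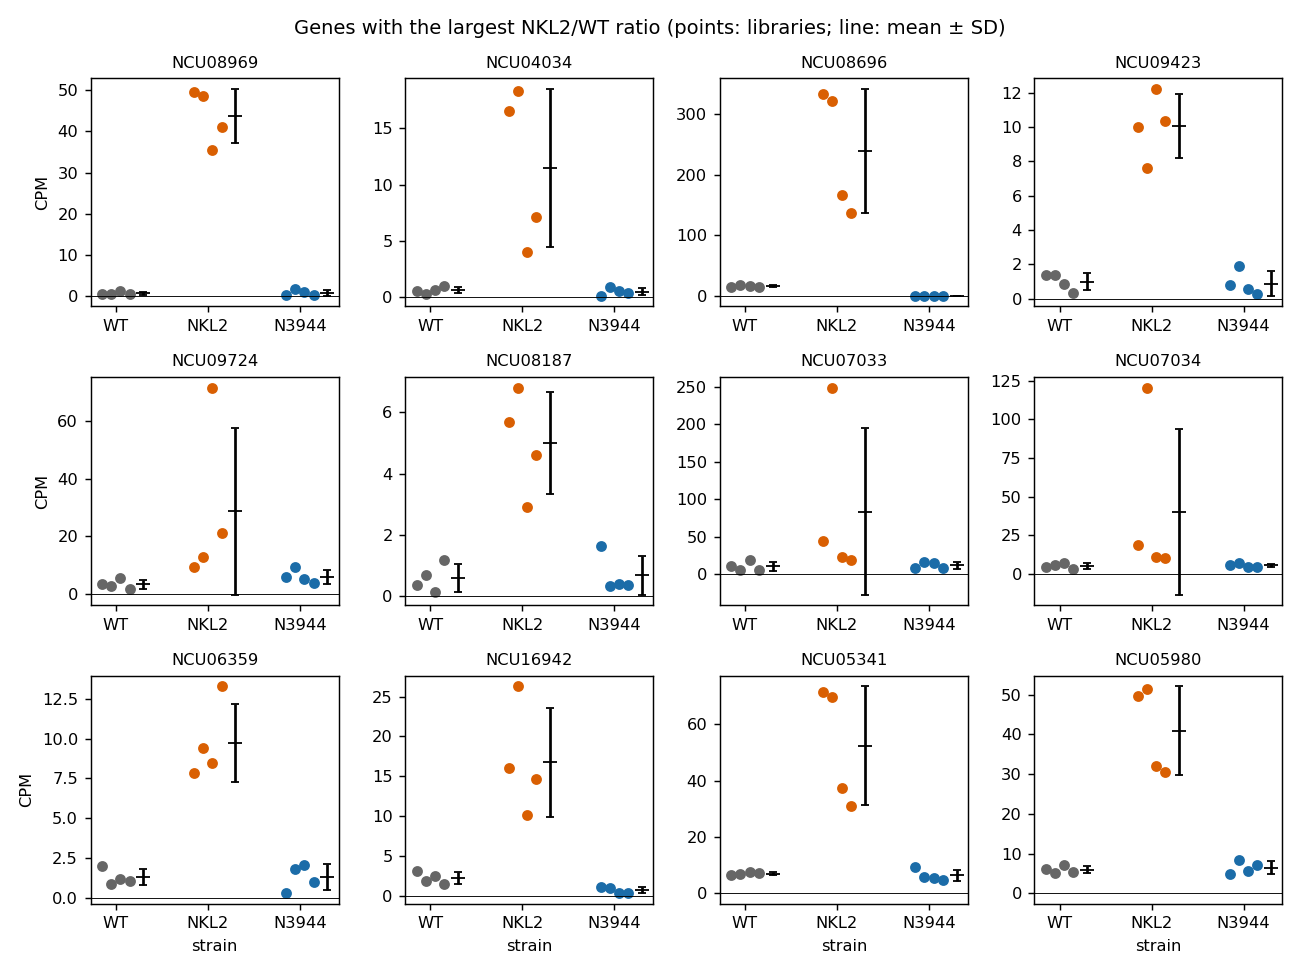
CPM of the 12 genes with the largest ratio of the NKL2 mean to the WT mean among those of at least 5 CPM in NKL2, by strain on linear axes that include 0. Points are libraries in replicate order and the bars beside them are mean ± SD. NCU08969 has tight groups, while NCU07033 and NCU07034 each have 1 NKL2 library far above the other 3.

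Some genes drew almost no reads in WT. At most 3 reads over the WT libraries were counted for 4 members, which were NCU09339, NCU16632, NCU09981 and NCU16633. NCU09339 had 2 reads in WT and 197 in NKL2, which is 76.8 times as many per read sequenced in genes, with 95% exact limits of 21.0 and 639. For NCU16632 the reads were 2 and 105, a ratio of 40.9 with limits of 11.1 and 342. NCU09981 had 1 read in WT and 72 in NKL2, a ratio of 56.1 with limits of 9.76 and 2248. NCU16633 had 1 and 51 reads, a ratio of 39.8 with limits of 6.82 and 1601. The limits come from reads pooled over the libraries of a strain, so they hold for the error of counting and not for the spread between libraries. Amplified reads carry no molecular identifier here, so the limits may be too narrow for counting as well. The rule chose these genes for a high ratio, which the limits do not allow for. In N3944 the same genes had 6, 1, 2 and 2 reads, so all 4 drew at most 6 reads there.

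Other members, among those with the highest NKL2 means, drew more reads in WT. Of those that follow, only NCU00408 had a WT mean above the all-gene median of 24.1 CPM. NCU00408 had 31.1, 20.7, 39.3 and 21.5 CPM in WT, 173, 154, 173 and 183 CPM in NKL2 and 25.6, 21.7, 36.9 and 24.7 CPM in N3944. Its NKL2 libraries were close together, and N3944 ranged over the same values as WT. NCU05341 had 7.05 ± 0.406 CPM in WT, 52.4 ± 21.1 CPM in NKL2 and 6.36 ± 2.06 CPM in N3944 (SD, n = 4). NCU05980 went from 5.95 ± 0.911 CPM to 40.9 ± 11.2 CPM, with 6.505 ± 1.60 CPM in N3944, and NCU08355 from 7.74 ± 2.23 to 35.9 ± 5.34 CPM, with 5.68 ± 0.983 CPM. NCU09267 had 13.1 ± 4.75 CPM in WT and 53.5 ± 22.9 CPM in NKL2, where replicate 2 had 87.7 CPM and the other 3 had 40.6 to 44.8 CPM. NCU04285 had 15.7 CPM in WT replicate 3 against 2.65 to 3.45 CPM in the other WT libraries, and 25.7 to 43.4 CPM in NKL2. Without WT replicate 3 its ratio was 11.1, where it was 5.49 with it. In N3944 NCU04285 had 11.4, 8.45, 11.0 and 8.65 CPM, all above the WT libraries other than replicate 3. Its place below the N3944 limit thus rested on WT replicate 3, as for fkr-3.

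The 39 members not named by the rule for named genes had WT means of 0.0349 to 7.36 CPM, NKL2 means of 1.18 to 25.7 CPM and N3944 means of 0.0176 to 9.87 CPM. Their medians were 0.602, 3.98 and 0.742 CPM, and their ratios of NKL2 to WT ran from 3.08 to 80.0 with a median of 4.75.

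The highest mean of the 71 genes in NKL2 belonged to NCU08696, whose level lay above WT in NKL2 and below WT in N3944. It had 15.4, 18.7, 17.1 and 14.9 CPM in WT, 333, 320, 166 and 137 CPM in NKL2 and 0, 0.211, 0.202 and 0.251 CPM in N3944. No strain overlapped another. The ratio of NKL2 to WT was 14.4, and the N3944 mean was 0.0100 of the WT mean. Over all libraries of a strain there were 643 reads in WT and 13 in N3944.

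The rule sets an upper limit for N3944 and no lower one. The N3944 mean was below the WT mean for 32 of the 71 genes and above it for 39. It lay between 1.5 and 2 times WT for 16 genes, and under 0.5 of WT for 10. For 65 genes every NKL2 library was above every N3944 library, where 13.2% of all tested genes had such groups. NCU00850, NCU04282, NCU01812, NCU06082, NCU04657 and NCU05978 overlapped. In edgeR 56 of the 68 tested members were called lower in N3944 than in NKL2, beside 7.92% of all genes, and 0 were called higher, beside 8.83%; in either direction 16.7% of all genes were called. The rule also shaped this contrast, so nothing is read from these counts.

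Against WT, 4 of the 68 tested members were called lower in N3944, beside 7.53% of all tested genes, and 1 was called higher, beside 9.0%. In either direction 16.5% of all tested genes were called. Every N3944 library lay below every WT library for 5 of the 71 genes, beside 10.8% of all tested genes, and above every WT library for 0, beside 9.07%. The rule used the WT values and capped the N3944 mean, which holds down the counts above WT beforehand. The calls lower lie near the share of all genes, and nothing is read from these counts. The 4 called lower were NCU08696, NCU16942, NCU06011 and NCU06480. NCU16942 had 3.17, 1.81, 2.50 and 1.54 CPM in WT, 16.0, 26.3, 10.2 and 14.6 CPM in NKL2 and 1.10, 0.985, 0.353 and 0.376 CPM in N3944. All its N3944 libraries were below all its WT libraries. NCU06011 had 1.19 ± 0.260 CPM in WT, 7.50 ± 0.776 CPM in NKL2 and 0.441 ± 0.0607 CPM in N3944 (SD, n = 4), also with no overlap between strains. NCU06480 had 1.37 CPM in WT replicate 3 and 0 to 0.140 CPM in the other WT libraries, so that its fall to 1 read in N3944 rested on 1 WT library. Calls of NCU08696 and NCU06011 were made under each of the 18 settings run, those of NCU16942 under 15 and those of NCU06480 under 12.

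The gene called higher in N3944 was NCU02022. It had 4.62, 4.05, 9.58 and 5.80 CPM in WT and 9.71, 9.71, 12.001 and 8.07 CPM in N3944, with WT replicate 3 inside the N3944 range. In NKL2 it had 23.9, 30.2, 22.01 and 26.4 CPM. The call was made under 9 of the 18 settings. For the members not called in N3944, a missed threshold does not show that N3944 and WT were alike. NCU06480 and NCU02022 were singled out here after their values had been seen.

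**Figure D3:**
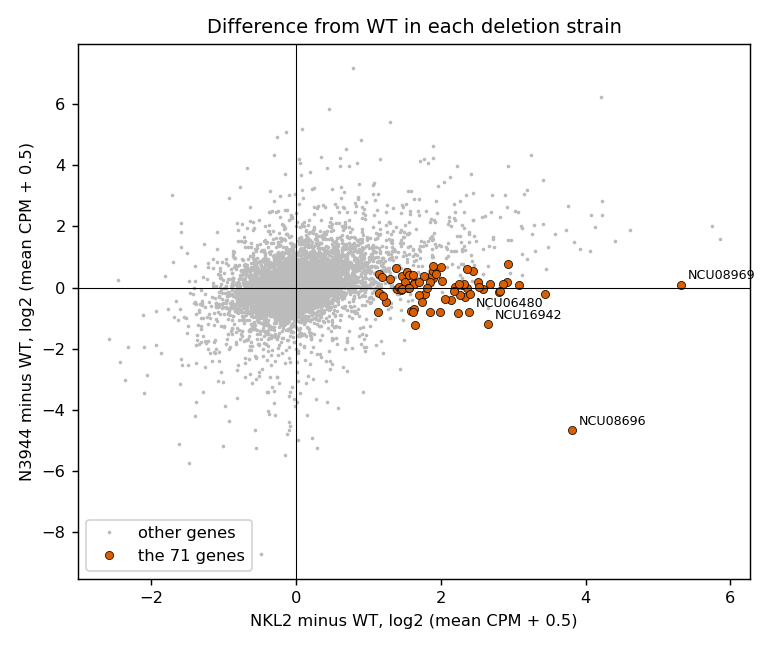
Difference of the strain means from WT on the log2 (mean CPM + 0.5) scale, NKL2 on the horizontal axis and N3944 on the vertical axis, for the 71 genes (orange) and all other genes (grey). The 71 genes lie to the right and mostly near the horizontal line, with N3944 means above WT for 39 and below for 32, and NCU08696 lies far below it.

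The limits of the rule cut through a continuous range. Just inside the ratio of 3 were NCU05978 at 3.02 and NCU04625 at 3.04, and just outside were NCU09384 at 2.96 and NCU09971 at 2.94. For N3944 over WT, NCU06082 at 1.87 and NCU09939 at 1.83 were the nearest inside, and NCU03323 at 2.04 and NCU03978 at 2.06 the nearest outside. At the limit of 1 CPM in NKL2, NCU16633 with 1.06 CPM and NCU09148 with 1.08 CPM were inside, and NCU08834 with 0.893 CPM and NCU01043 with 0.882 CPM outside.

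Within NKL2 the libraries did not contribute alike. The summed level of the 71 genes was 1471, 1867, 1140 and 1066 CPM in NKL2 replicates 1 to 4, against 156 to 265 CPM in the WT libraries and 188 to 236 CPM in the N3944 libraries. Replicate 2 was the highest NKL2 library for 37 of the 71 genes and replicate 1 for 19. Replicate 4 was the lowest for 26 genes and replicate 3 for 20. Replicate 2 was also the NKL2 library with the highest share of reads outside genes, at 31.9%, beside 13.4%, 6.05% and 5.17% in replicates 1, 3 and 4. In WT, replicate 2 had the highest such share, at 36.8%, and the lowest summed level of the 71 genes. The part of this share in the levels was not tested. Without NKL2 replicate 2 the median ratio of NKL2 to WT over the 71 genes was 4.57, and without replicate 2 of both strains it was 4.39.

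**Figure D4:**
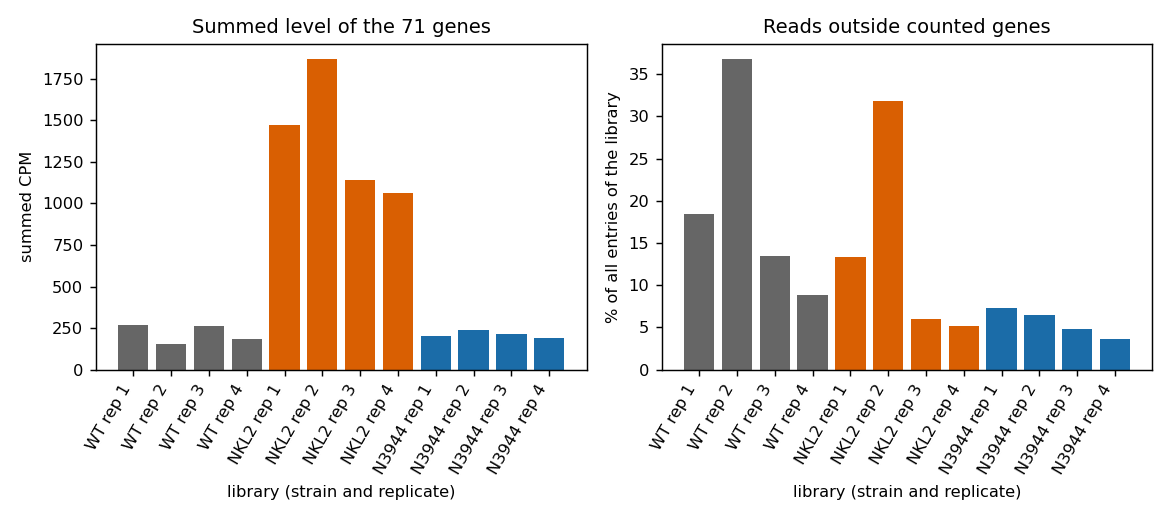
Summed CPM of the 71 genes in each library (left) and share of all entries of the library that lay outside counted genes (right), with bars from 0 coloured by strain. The NKL2 bars on the left lie between 1066 and 1867 CPM, all above the other strains, and replicate 2 of WT and of NKL2 has the tallest bars on the right.

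Leaving out a single WT or NKL2 library moved the ratio of NKL2 to WT by over 1.5 times for 25 of the 71 genes. The library with the largest effect was a WT library for 21 of these and an NKL2 library for 4. Without NKL2 replicate 2, the ratios of NCU06965, NCU07033, NCU07034 and NCU16738 were under 3. The ratio of NCU05978 was 2.55 without NKL2 replicate 1, and that of NCU04625 was 2.58 without replicate 1 and 2.89 without replicate 3. For NCU04657 it was 2.90 without NKL2 replicate 3 and 2.74 without replicate 4. With 1 WT library left out, at least 1 ratio under 3 was found for NCU03287, NCU04625, NCU04657, NCU05978, NCU06019, NCU06082, NCU06575, NCU06650, NCU07822, NCU07825 and NCU16594. NCU09724 depended on NKL2 replicate 3, where it had 71.7 CPM, against 9.52, 12.8 and 21.1 CPM in replicates 1, 2 and 4 and 1.77 to 5.47 CPM in WT. Its ratio was 4.34 without that library and 8.63 with it. The N3944 limit rested on single WT libraries as well. For NCU09981, NCU16633, NCU16483 and NCU03351 all WT reads lay in 1 library, and without it no N3944 mean can stay under the limit. Without their highest WT library, NCU00850, NCU01038, NCU02022, NCU09724 and NCU10152, for example, reached 2 times WT in N3944.

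The position of the genes was not used by the rule. In the gene order of the RefSeq assembly NC12, the 71 genes lay on all 7 linkage groups. Linkage group II, where the deleted region lies by its name, held 7 of them, which is 0.681% of its genes in the count tables. The shares of the other linkage groups ran from 0.597% on linkage group I to 1.08% on linkage group IV, which held 16 members. Immediate neighbours accounted for 10 members in 5 pairs, and the other 61 had no member next to them. When 1 other gene was allowed between members, 13 lay in 6 stretches.

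On linkage group IV the neighbours were NCU07033 and NCU07034. NCU07033 had 44.2, 249, 22.5 and 19.2 CPM in NKL2 replicates 1 to 4, and NCU07034 had 18.8, 121, 11.2 and 10.5 CPM in the same libraries. Both were highest in replicate 2, and the order of the libraries was the same for both. In WT they had 5.72 to 19.2 CPM and 3.31 to 7.16 CPM, and in N3944 7.97 to 16.8 CPM and 4.74 to 6.90 CPM. The lowest NKL2 library of NCU07033 was at the level of its highest WT library, with a ratio of 1.00. Without NKL2 replicate 2 the ratios of NKL2 to WT were 2.70 and 2.63, where they were 7.89 and 7.87 with it, so the membership of this pair rested on that library. The next gene, NCU07035, also had its highest NKL2 value in replicate 2, at 33.5 CPM against 9.43 to 10.8 CPM in the other 3, and was not called (edgeR adjusted p = 0.157).

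The other pairs did not rest on a single NKL2 library. NCU07822 and NCU07823 on linkage group III had 8.45 to 13.4 CPM and 11.5 to 26.3 CPM in NKL2, against 1.81 to 5.56 CPM and 1.77 to 5.17 CPM in WT. Without WT replicate 2 the ratio of NCU07822 was 2.93. NCU07825 followed after NCU07824, a gene with 20.3 ± 2.45 CPM in WT and 23.0 ± 1.33 CPM in NKL2 that was not called (log2 difference 0.17, SE 0.153, edgeR adjusted p = 0.697). In the annotation NCU07825 and NCU07824 overlap, so reads may have been set aside as ambiguous there. NCU06011 and NCU06010 on linkage group VI had 6.81 to 8.60 CPM and 21.6 to 43.7 CPM in NKL2, against 0.828 to 1.45 CPM and 3.43 to 7.89 CPM in WT. Of this pair, only the former was called lower in N3944, and the difference between the 2 genes was not tested.

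On linkage group VII, NCU08186 had 11.4, 11.2, 3.62 and 6.19 CPM in NKL2 and NCU08187 had 5.69, 6.81, 2.93 and 4.60 CPM. Both were lowest in replicate 3. Their WT ranges were 1.40 to 2.96 CPM and 0.161 to 1.18 CPM. NCU16632 and NCU16633 on linkage group III, with 2 reads and 1 read in WT, had 1.14 to 3.02 CPM and 0.604 to 1.41 CPM in NKL2. Next to them, NCU06476 had 0.0645 CPM in WT, 0.272 CPM in NKL2 and 31.9 CPM in N3944, so that its high strain was N3944. A stretch with 1 gene between held NCU05980 and NCU05978, and the gene between them, NCU05979, had 22.2 CPM in WT and 21.2 CPM in NKL2.

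**Figure D5:**
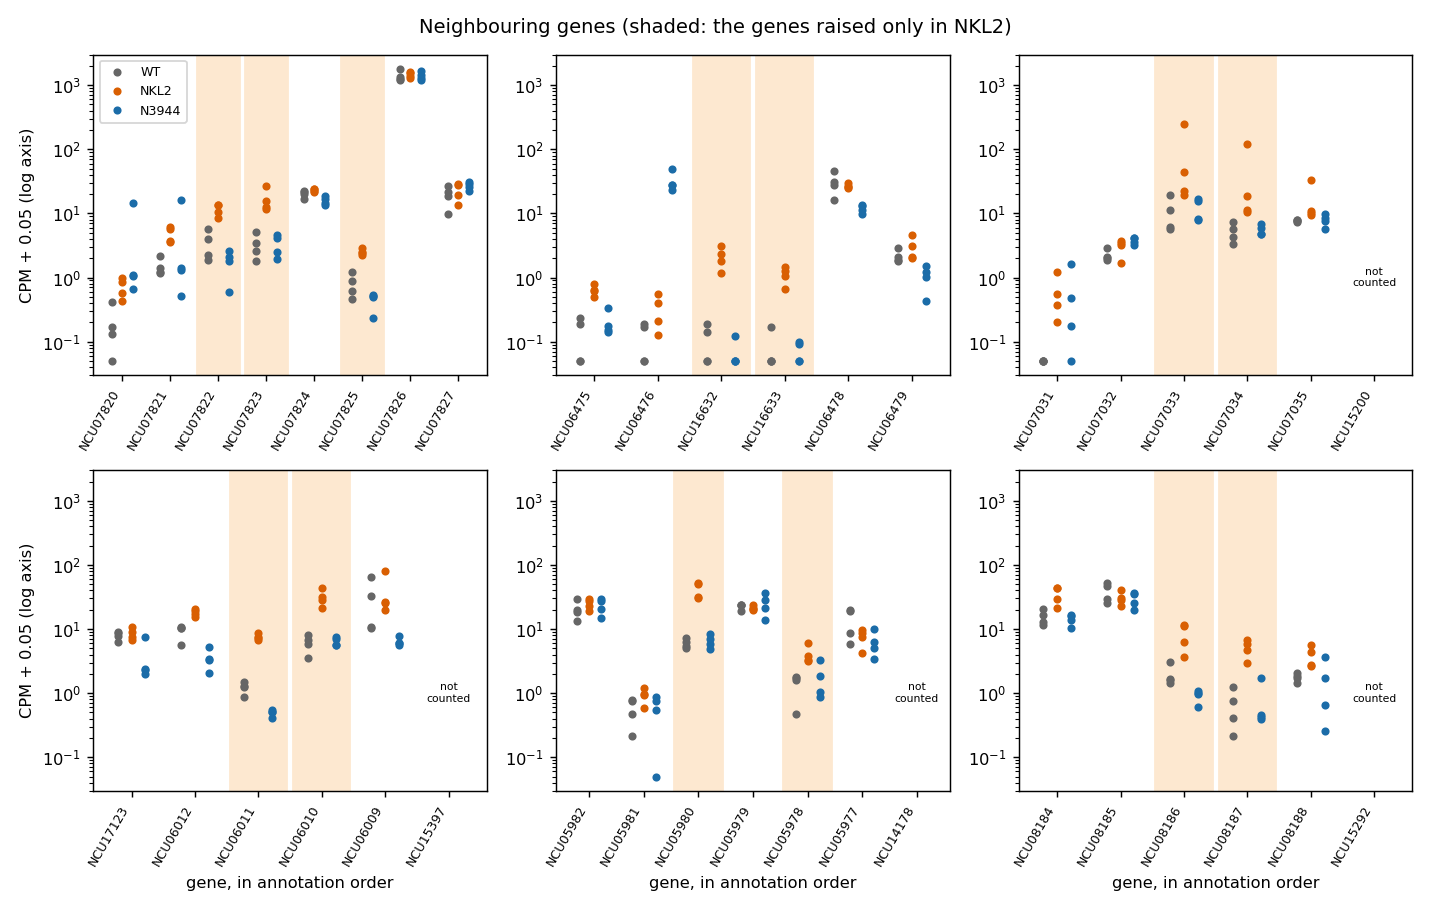
CPM + 0.05 on a log axis for the members (shaded) of the 6 stretches with at most 1 gene between members, and for 2 genes on each side, in annotation order with even spacing. Points are libraries coloured by strain. Orange NKL2 points lie above grey WT points in shaded columns, while the NKL2 and WT points of the genes between members, NCU07824 and NCU05979, overlap.

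Genes next to a member and not members themselves were read as a comparison that the rule did not choose directly. Of 130 such genes, 107 were tested. In edgeR 9 of the 107 (8.41%) were called higher in NKL2 than in WT, beside 3.08% of all tested genes, and 2 (1.87%) were called lower, beside 1.24%. Their median log2 difference was 0.15, beside -0.01 over all tested genes. This count cannot hold a gene that meets the rule, since such a gene is a member. Of the 9 neighbours called higher, 8 met the conditions in NKL2 and reached 2 times WT in N3944, and were kept from the 71 genes by that limit. For NCU03511 and NCU09338, among these, the limit rested on 1 read and 0 reads in WT. A gene with 0 reads in WT cannot stay under it. Neither gene was called in N3944 against WT (edgeR adjusted p = 0.276 and 0.0834). NCU03511 had 1.71 to 3.24 CPM in the NKL2 libraries and 0 to 0.209 CPM in the N3944 libraries.

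The neighbour with the lowest adjusted p was NCU09147, beside NCU09148. It had 0.664 ± 0.753 CPM in WT, 61.8 ± 14.1 CPM in NKL2 and 4.20 ± 1.59 CPM in N3944 (SD, n = 4). The log2 difference of NKL2 from WT was 6.40 (SE 0.586, edgeR adjusted p = 4.88e-05), and that of N3944 from WT was 2.59 (adjusted p = 0.00736). Its neighbour NCU09148, a member, had 0.212 CPM in WT, 1.08 CPM in NKL2 and 0.135 CPM in N3944. For NCU02023, beside NCU02022, the level rose from 0.128 ± 0.149 to 5.61 ± 0.573 CPM in NKL2 (adjusted p = 0.000175) and to 2.11 ± 0.648 CPM in N3944 (adjusted p = 0.000505). NCU07485, beside gh18-8, rose from 3.65 ± 1.19 CPM to 21.3 ± 13.6 CPM in NKL2 (adjusted p = 0.00769) and 11.2 ± 5.45 CPM in N3944 (adjusted p = 0.0229). The remaining neighbour, NCU07046 beside NCU07047, was called in NKL2 (8.33 ± 3.64 to 20.3 ± 2.14 CPM, adjusted p = 0.0436) and not in N3944 (10.5 ± 4.28 CPM, adjusted p = 0.430).

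Falls beside members were found for NCU00948 and NCU08648. NCU00948, next to NCU00947, went from 3.48 ± 1.23 CPM in WT to 0.742 ± 0.228 CPM in NKL2 (edgeR adjusted p = 0.00336). NCU08648, next to NCU08649, went from 54.5 ± 9.50 to 28.2 ± 3.78 CPM (adjusted p = 0.0320). Counting ignored strand, so reads of a gene and of an antisense or overlapping partner cannot be told apart, and 3 members overlap another annotated gene, namely NCU00850, NCU05821 and NCU07825.

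None of the 71 genes was on the lists of genes for conidiation, sexual development and meiosis, carbon sources or incompatibility, where 20, 19, 20 and 6 symbols were found. The rule had left out mfa-1 and pre-1 of the sexual list by name. Their absence was therefore fixed beforehand, and nothing is read from it. Of the conidiation genes, which act in making asexual spores, edgeR called 0 of 20 in NKL2 in either direction, beside 4.32% of all tested genes. Of the 20 conidiation genes, 1 had an unadjusted p under 0.05 and DESeq2 called 0. Their median log2 difference was 0.33. For the carbon source genes edgeR called 0 of 20, 5 had an unadjusted p under 0.05 and DESeq2 called 2, with a median log2 difference of -0.13. Of the 6 incompatibility genes, which act when unlike hyphae fuse, 0 were called by either tool and 0 had an unadjusted p under 0.05, with a median of 0.08. In lists this short, 0 edgeR calls lie near the 4.32% of all tested genes, and nothing is read from them. The summed level of conidia and aerial hypha markers was 980 to 3486 CPM in WT, 1190 to 4543 CPM in NKL2 and 1356 to 15429 CPM in N3944. These ranges overlap, and none of the 8 markers was at 0 reads in any strain.

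Of 15 genes of sexual development and meiosis tested, edgeR called 3 higher in NKL2, beside 3.08% of all tested genes, and 1 lower, beside 1.24%. The other 11 were not called, 7 of the 15 had an unadjusted p under 0.05 and DESeq2 called 4, with a median log2 difference of 0.43 over the list. In N3944 edgeR called 3 of the 15 higher, which were rsk, sad-3 and mei-3, beside 9.0% of all tested genes, and 0 lower, beside 7.53%. There 6 had an unadjusted p under 0.05 and DESeq2 called 4, with a median of -0.13. The genes mfa-1 and pre-1 were known to move in these data when the list was made, so their count is not independent evidence. The pheromone gene mfa-1 rose from 4.58 ± 3.16 to 24.5 ± 5.94 CPM (edgeR adjusted p = 0.00295), with 3.61 ± 0.751 CPM in N3944, and the pheromone receptor gene pre-1 from 3.48 ± 0.480 to 11.9 ± 1.77 CPM (adjusted p = 0.00104), with 4.58 ± 1.11 CPM. The gene sad-3, of meiotic silencing, rose from 0.482 ± 0.523 to 3.13 ± 0.766 CPM (adjusted p = 0.0360), with 2.68 ± 1.26 CPM in N3944. The transcription factor gene fsd-1, which acts in female sexual development, fell from 45.5 ± 9.17 to 20.3 ± 4.01 CPM (adjusted p = 0.0498). Over the 8 markers of sexual tissue, of which none was at 0 reads, the summed level was 173 to 310 CPM in WT, 216 to 592 CPM in NKL2 and 141 to 249 CPM in N3944. Most of this sum came from asd-1, with means of 159 CPM in WT, 218 in NKL2 and 82.2 in N3944. The sums of NKL2 and WT overlapped, though of these markers edgeR called mfa-1 and pre-1 higher and fsd-1 lower in NKL2. The part of such tissue in the levels of the 71 genes was not tested.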

How the data were processed

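Each library has a deposited table of unnormalized gene counts, per the labels. The submitters' processing notes name HISAT2, HTSeq and DESeq2; versions and the genome build were not given in the sources used here. The deposited files are marked as counted without strand. Libraries were directional single reads of 118 nt, per the labels' protocols. The 5 summary entries below the genes entered no total. Reads outside genes took 3.62% to 36.8% of a library, and ambiguous reads 1.78% to 3.01%.

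CPM values divide a count by the sum of gene counts in the library, times 1000000. Differences were fitted in R 4.3.3 with edgeR 4.0.16 (TMM scaling, filterByExpr, quasi-likelihood F-test, all 12 libraries in 1 fit with 1 mean per strain) and adjusted over 8496 genes by the Benjamini-Hochberg method. P-values are two-sided. The fit was checked on simulated counts. DESeq2 1.42.0 was an alternative. Strains were grouped by title, and replicates by the number word in it. Samples of equal number were not treated as pairs.

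RefSeq's table of assembly NC12 matched 9729 of 9730 identifiers and served for names, gene order and linkage groups. No coordinates are printed, since the counts come with no named build. Promoter motifs, sequences and product names were planned and not analysed here.

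Named are the 12 members with the largest ratio of NKL2 to WT at an NKL2 mean of at least 5 CPM, the 12 with the highest NKL2 mean, those with a symbol, those in stretches of neighbours, and those nearest to each limit, 32 in all. Other genes were named after their values were seen. The members and lists were chosen with earlier results of these data known.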

Additional observations from a re-analysis of the deposited data

Results flagged for a closer look

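Dixon's test at its 95% critical value was used to look for a library that stands far from the other 3 of its strain. Named genes were read on the log2 (CPM + 0.5) scale. Of 108 groups, 9 passed, where about 5.4 would by chance. Chance singles out about 1 in 20, but this rate does not hold for NCU16632 in N3944 and NCU16633 in WT, where 1 read against 3 libraries at 0 passes by construction.

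In WT, NCU04285 had 15.7 CPM in replicate 3 against 2.65 to 3.45 CPM in the others. NCU05978 had 0.419 CPM in WT replicate 2 against 1.54 to 1.72 CPM, and NCU16633 had 0.118 CPM in WT replicate 4, where the others had 0. In NKL2, NCU09267 had 87.7 CPM in replicate 2 against 40.6 to 44.8 CPM.

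In N3944, fkr-3 (NCU04371) had 35.8 CPM in replicate 2 against 20.9 to 21.9 CPM, and NCU16632 had 0.0704 CPM there, where the others had 0. Replicate 1 of N3944 had 1.65 CPM of NCU08187 against 0.352 to 0.403 CPM in the others. In the same library, NCU08355 had 4.21 CPM against 6.001 to 6.26 CPM and NCU08696 had 0 CPM against 0.202 to 0.251 CPM.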

How the results depend on the processing

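The rule found 71 genes with CPM from gene totals, 70 with TMM scaling and 71 with RLE scaling. It found 125 at a ratio of 2, 42 at a ratio of 5 and 39 at a minimum of 5 CPM in NKL2. With each library left out in turn it found 73 to 101 genes, and 36 of the 71 genes were found in all 12 such repeats. Without replicate 2 of WT and NKL2 together, chosen after seeing the data, it found 81 genes, 54 of them among the 71. Members called in NKL2 against WT numbered 49, and 35 to 55 with a library left out. Calls in N3944 against WT numbered 5, and 2 to 5 with a library left out, being 3, 3, 2 and 3 without N3944 replicates 1, 2, 3 and 4. Calls in N3944 against NKL2 numbered 56, and 43 to 59 with a library left out. Of the named members 28 were called in NKL2 against WT, and 22 to 29 with a library left out. For these genes 462 of 525 repeats under other settings kept the side of the threshold, 59 lost a call, 4 gained one and none reversed. With the replicate number as a block, 42 members were called in NKL2 against WT, 4 in N3944 against WT and 55 between the mutants. No source says what the numbers mark, and they were not taken as pairs, since same-numbered libraries deviated together at r over 0.1 in 3 of 12 pairs, with r from -0.20 to 0.52. WT and NKL2 share the order of their replicates by reads outside genes, highest in replicate 2 of both, and r was 0.52 between their replicates 1 and -0.20 between their replicates 2. Genes with few reads set the limit of depth, with 33 members under 1 CPM in WT.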
